A study of Mus musculus with 6 samples.

Results

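The Speer4 gene cluster is an array of near-identical genes on mouse chromosome 5, between Pclo and Cacna2d1, genes that encode a presynaptic scaffold protein and a calcium channel subunit. Its 7 listed members were Speer4c, Speer4d, Gm17019, Gm21149, Gm21190, Gm21083 and 4930572O03Rik, of 55413 annotated genes on the chromosomes, chosen as annotated in GENCODE vM21 on mm10. Alignment of Speer4c to the assembly found 10 copies of the gene there, which with 15 kb on either side make up the array (chr5:14895122-15729271). All peaks were taken in a window that reached 395.1 kb before the array and 270.7 kb beyond it. The 3 copies outside the list were Gm9758, Speer4e and Gm10354, and they are described beside the members. In the window lay 117 DPPA4 peaks of the GFP-positive list and 9 of the GFP-negative list, which merged into 120 of the 99695 regions of the genome. The locus was chosen with these lists in view, for its run of GFP-positive-specific regions, so every count of peaks per list at the locus is given as a description and not as a test.

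Binding of DPPA4 was profiled by CUT&RUN, in which an antibody directs a nuclease to the chromatin a protein occupies, to ask how its binding differs between mESCs and 2-cell-like cells (2CLCs). All libraries came from the line EHMT2-dTAG-mcherry-mervl-gfp (strain BL6/129 hybrid), whose histone methyltransferase EHMT2 carries a degradation tag, and all were labelled as exposed to dTAG for 72 h. Both cell states were therefore depleted of EHMT2, and cells with EHMT2 were not analysed here. GFP-positive cells, in which the reporter driven by the MERVL retroviral promoter is on, stand for 2CLCs, and GFP-negative cells stand for mESCs, although the labels give the cell type of all 6 samples as ESC. Each state had 2 DPPA4 libraries that the authors pooled into 1 peak list, and the 2 IgG libraries (1 of GFP-negative and 1 of bulk cells) have no peak list used here. No spread between replicates can be drawn from pooled lists, so no difference between the cell states carries a test, and the number of reads kept after filtering is unknown for either list.

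Speer genes encode spermatogenesis-associated glutamate-rich proteins and are known for expression in the testis. The family is specific to rodents and grew by tandem duplication, so its members sit in arrays whose copies share both the genes and the sequence between them. DPPA4 pairs with DPPA2 to bind DNA in ESCs and early embryos and is known for activating genes of the 2-cell stage. Expression was not measured here, so the testis label of the cluster could not be checked, whereas its membership could. The other 9 copies were 96.9% (Gm21190) to 98.8% (Speer4d and 4930572O03Rik) identical to Speer4c, over aligned lengths of 4062 bp in Gm17019 to 4816 bp in Gm21190.

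The sequence that recurred most often under GFP-positive peaks lay downstream of the genes. It is shown because 10 of its 11 matches in the array were under a GFP-positive peak and 0 of 11 under a GFP-negative peak. This sequence was found by grouping peak summits, nearly all of them GFP-positive. Its 10 matches under GFP-positive peaks are at the 10 summits that define it, so that count follows from the choice. The array held only 3 GFP-negative peaks, so few matches could be under one. A match is called under a peak when its midpoint lies in the peak. The 80 bases at its centre are printed 5′ to 3′ on the strand of the gene copy, with capitals at the 7 columns that differ among the 11 matches.
Speer4c, chr5:15704973-15705052, minus strand: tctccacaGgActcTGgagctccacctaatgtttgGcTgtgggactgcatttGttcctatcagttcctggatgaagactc
Gm17019, chr5:15024450-15024529, minus strand: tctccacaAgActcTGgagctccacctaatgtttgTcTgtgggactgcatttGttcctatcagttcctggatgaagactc
Gm21149, farther site, chr5:15463707-15463786, minus strand: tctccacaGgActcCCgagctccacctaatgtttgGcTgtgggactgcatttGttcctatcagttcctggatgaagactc
Gm21190, chr5:15522607-15522686, minus strand: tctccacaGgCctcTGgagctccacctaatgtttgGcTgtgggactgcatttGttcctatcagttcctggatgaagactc
Gm21083, chr5:15586505-15586584, plus strand: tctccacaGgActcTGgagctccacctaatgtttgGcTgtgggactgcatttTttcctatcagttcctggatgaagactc
Speer4d, chr5:15628308-15628387, plus strand: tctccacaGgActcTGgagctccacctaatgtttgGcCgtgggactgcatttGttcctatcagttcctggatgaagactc
The run printed for Speer4c, the only match without a peak, was identical in the matches of Gm9758, Speer4e, Gm10354, 4930572O03Rik and the nearer site of Gm21149, each of which was under a peak. The 11 matches held 6 distinct runs in these columns.

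A second sequence, upstream of the genes, is shown because all 7 of its matches in the genome were in the array, all 7 were under a GFP-positive peak, and it held the strongest peak of the locus. It was found in the same way, so its count under GFP-positive peaks follows from that choice for the 4 summits in the family. Capitals mark the 8 columns that differ among its matches.
4930572O03Rik, chr5:15672134-15672213, minus strand: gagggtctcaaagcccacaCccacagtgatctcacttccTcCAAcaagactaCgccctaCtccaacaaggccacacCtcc
Gm10354, chr5:14988520-14988599, minus strand: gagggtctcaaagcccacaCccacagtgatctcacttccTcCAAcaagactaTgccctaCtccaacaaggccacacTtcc
Gm21149, chr5:15486139-15486215, minus strand: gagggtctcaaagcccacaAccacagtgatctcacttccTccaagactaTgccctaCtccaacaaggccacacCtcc
Gm21190, chr5:15551143-15551222, minus strand: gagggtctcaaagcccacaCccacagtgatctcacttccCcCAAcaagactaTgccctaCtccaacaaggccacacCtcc
Speer4d, chr5:15609474-15609553, plus strand: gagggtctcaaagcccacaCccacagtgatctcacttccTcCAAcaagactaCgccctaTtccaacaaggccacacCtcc
The run of 4930572O03Rik was also that of Speer4e and Gm17019. The run of Gm21149 is 77 bases long because 3 bases are absent from it.

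The listed genes ran from Gm17019 (chr5:15028950-15032998) through Gm21149 (chr5:15471703-15476523), Gm21190 (chr5:15524456-15529222), Gm21083 (chr5:15577333-15582078), Speer4d (chr5:15619064-15623864) and 4930572O03Rik (chr5:15652286-15657059) to Speer4c (chr5:15709501-15714271). All 7 are protein-coding in GENCODE vM21. Gm21083 and Speer4d lie on the plus strand and the other 5 members on the minus strand, as do Gm9758, Speer4e and Gm10354. Neighbouring copies started a median of 44.9 kb apart (range 23.6 to 57.2 kb, n = 8 intervals), leaving out the pair on either side of an assembly gap. That gap of 395 kb, from 15062667 to 15457666, lies between Gm17019 and Gm21149 and takes up 47.4% of the array. The last GFP-positive peak before the gap ended 80 bp from it, and the first one after it started 81 bp beyond it. How many further copies and peaks the missing sequence holds is therefore unknown.

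**Figure D1:**
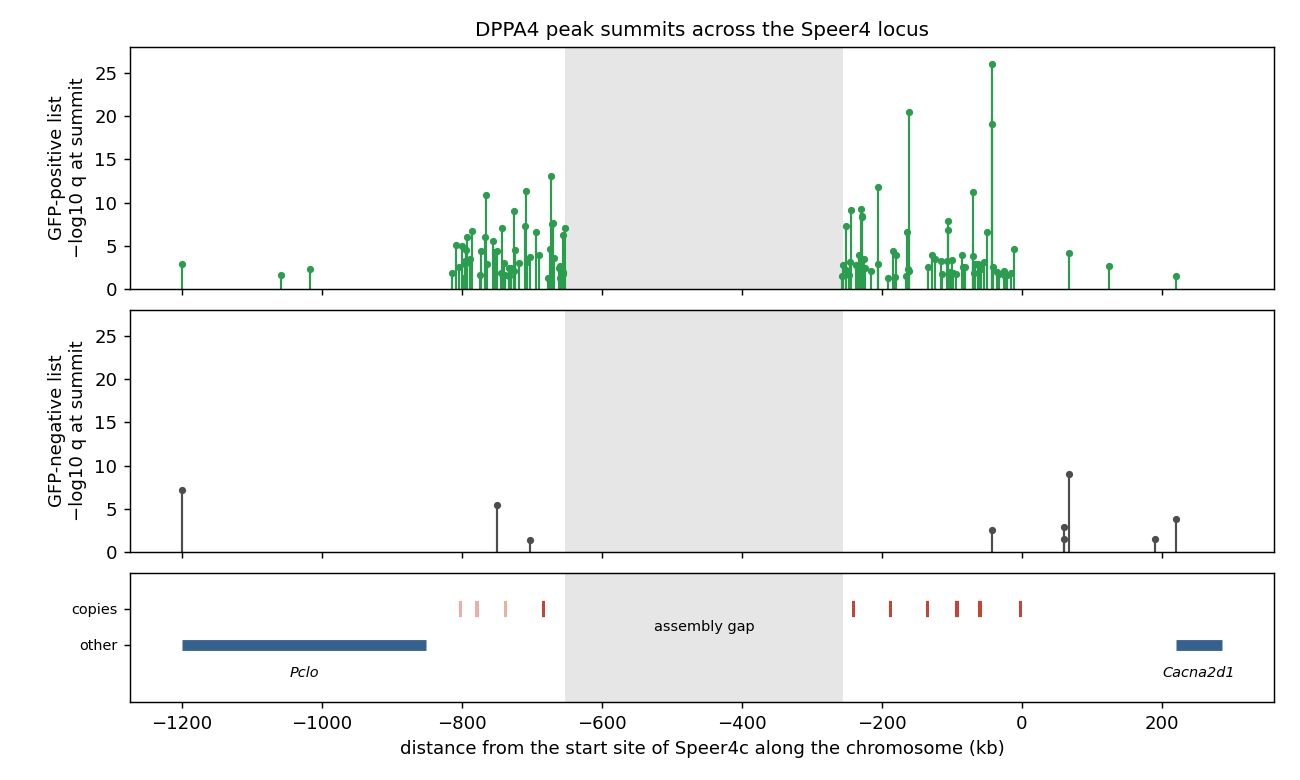
DPPA4 peak summits of the GFP-positive list (top) and the GFP-negative list (middle) by distance in kb from the start of Speer4c, with the −log10 q of each summit as its height. The bottom track marks the 7 listed genes (red), the 3 further copies (pale red), Pclo and the part of Cacna2d1 inside the window (blue) and the assembly gap (grey); 111 of the 117 GFP-positive summits and 3 of the 9 GFP-negative summits fall in the array.

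Of the 120 regions, 111 (92.5%, Wilson 95% interval 86.4% to 96.0%) were GFP-positive-specific, against 18.4% of all regions of the genome. A region is GFP-positive-specific when it holds peaks of that list alone, GFP-negative-specific when it holds peaks of the other list alone, and common when peaks of both lists share at least 1 bp. The intervals reflect counting error alone, as if each region were an independent draw. Another 6 regions were common, against 35% of all regions, and 3 were GFP-negative-specific, against 46.7%. Within the array itself, 108 of 111 regions (97.3%, 92.4% to 99.1%) were GFP-positive-specific, 3 were common and 0 were GFP-negative-specific.

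Peaks of the GFP-positive list were dense in the array and nowhere else in the window. The array held 111 GFP-positive peaks in 439.2 kb of assembled sequence, or 25.3 per 100 kb, whereas the same list had 2.06 per 100 kb over all chromosomes. The GFP-negative list had 3 peaks in the array, or 0.683 per 100 kb, below its 3.16 per 100 kb over all chromosomes, although it was the longer list with 83602 peaks against 54642. On either side of the gap the picture was alike, with 50 GFP-positive and 2 GFP-negative peaks before it (29.8 and 1.19 per 100 kb) and 61 and 1 after it (22.5 and 0.368 per 100 kb). In the 395.1 kb of window before the array, largely the body of Pclo, there were 3 GFP-positive peaks and 1 GFP-negative peak. Between the array and Cacna2d1, over 205.4 kb, there were 2 GFP-positive and 5 GFP-negative peaks.

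**Figure D2:**
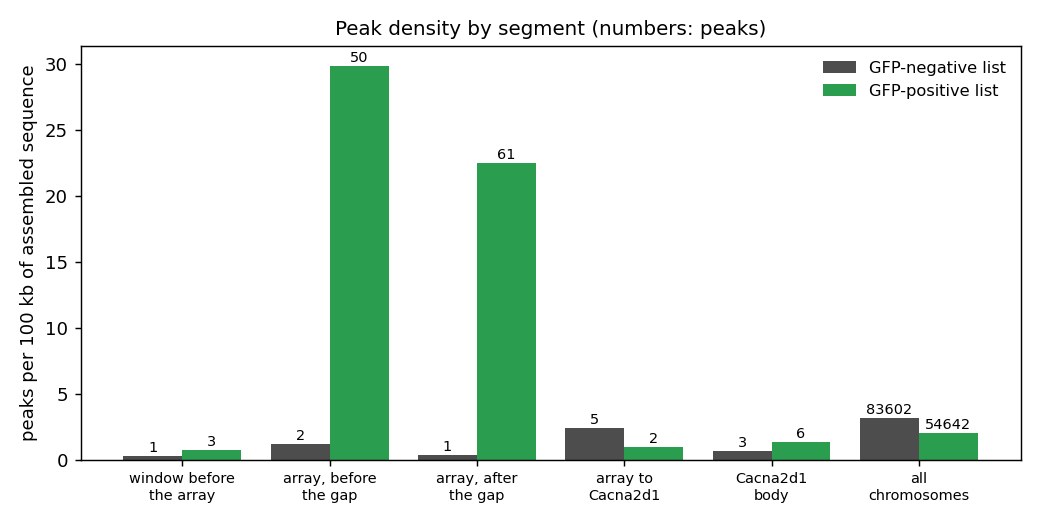
Peaks per 100 kb of assembled sequence in segments of the locus, in the body of Cacna2d1 and over all chromosomes, for the GFP-negative (grey) and GFP-positive (green) lists; the number over each bar is its count of peaks. The GFP-positive bars reach 29.8 and 22.5 in the array and stay at or below 2.06 in the other segments.

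Every member had GFP-positive summits within 10 kb of its body and no GFP-negative summit there, while 52.8% of all annotated genes had a GFP-positive and 59.2% a GFP-negative summit within that distance. Of GFP-positive summits within 10 kb, Gm21149 had 11, 4930572O03Rik 9, Speer4d 8, Gm17019 6, Gm21190 4, Gm21083 3 and Speer4c 1. The further copy Gm10354 had 1 GFP-negative summit within 10 kb, and within 25 kb Gm17019 and 4930572O03Rik had 1 each. Each summit was also assigned to the copy with the nearest start. By that count Gm17019 had the most GFP-positive summits with 19, followed by Gm21149 with 16 and 4930572O03Rik with 14. Gm21083 had 4 and Speer4c 5, the lowest counts of the 10 copies. The stretch nearest to a copy's start varied in length, from 31.6 kb for Gm9758 to 56.7 kb for Gm17019. Per 100 kb of its stretch, Gm21149 had the most summits (35.4), followed by Gm17019 (33.5), and Gm21083 (8.91) and Speer4c (11.5) had the fewest. The further copies Gm10354, Gm9758 and Speer4e had 15, 10 and 6. Reads that matched several copies equally well were placed at random among them, so these counts do not rank the copies by binding.

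Most summits lay outside the genes of the family, which take up little of the array. The bodies of the 7 members held 4 of the 111 array summits (3.60%, 1.41% to 8.90%) while making up 7.45% of the assembled length, a share inside the interval, and those of all 10 copies held 7 (6.31%) on 10.8% of the length. Of the members, 4930572O03Rik had 2 summits in its body and Gm21083 and Speer4d had 1 each. Promoters of members, from 2.5 kb upstream to 0.5 kb downstream of a start site, held 2 summits (1.80%), at −1492 bp in Gm21149 and −1385 bp in Gm21190. Promoters of any annotated gene held 12 (10.8%, 6.29% to 18.0%), against 35.5% of the summits of the whole list. Outside every promoter and body lay 61 summits (55.0%), and 66 (59.5%) were upstream of the nearest copy start.

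Long antisense transcripts run through the right side of the array, and summits lay in their annotated bodies at about the density of their surroundings or below it, apart from the short Gm43391. Gm21847, which spans 140.2 kb across Gm21190, Gm21083, Speer4d and most of 4930572O03Rik, held 31 GFP-positive summits, the 4 in member bodies among them, or 22.1 per 100 kb against 22.5 in the array after the gap. Gm30613, inside that span on the opposite strand, held 10 (14.9 per 100 kb), Speer4cos, which covers Speer4c, held 6 (17.7) and Gm43391, across Gm21149, held 4 (27.2). CUT&RUN fragments carry no strand of transcription, so a summit in an overlap cannot be given to either gene.

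The sequence just upstream of the copy starts is printed because it is nearly the same in all 10 copies. Only Gm9758 had a GFP-positive summit there. Its summit was 105 bp upstream of the start, with a fold enrichment of 3.51 and a −log10 q of 5.04. The nearest summits of the other 9 copies were at least 1385 bp from the start. Over the 300 bp around this site the other copies were 94.4% (4930572O03Rik) to 97.7% identical to Gm9758. The runs below are on the strand of each gene, with capitals at the 9 columns that differ among the 10 copies.
Gm9758, chr5:14914963-14915041, minus strand: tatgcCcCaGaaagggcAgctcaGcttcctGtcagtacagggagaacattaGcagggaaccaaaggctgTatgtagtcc
Speer4c, chr5:15714336-15714415, minus strand: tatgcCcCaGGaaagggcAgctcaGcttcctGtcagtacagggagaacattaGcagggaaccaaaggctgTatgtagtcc
Gm21083, chr5:15577124-15577203, plus strand: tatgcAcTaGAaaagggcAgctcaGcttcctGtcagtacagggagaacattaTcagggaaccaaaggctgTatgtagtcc
4930572O03Rik, chr5:15657143-15657222, minus strand: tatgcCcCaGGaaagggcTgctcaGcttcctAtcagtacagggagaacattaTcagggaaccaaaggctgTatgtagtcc
The run of Gm9758 is 79 bases long because a base is absent from it.

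Summits could be grouped by sequence, joining those whose surrounding 200 bp matched at 90% identity or more over at least 100 bp. Of the 111 array summits, 48 fell into 16 such families, and 6 families held 3 or more summits each, 29 in all. Because families were built from peak summits, their counts of matches under GFP-positive peaks are descriptions and not tests. Members of a family are copies of one sequence and are not independent sites, and a read from such a sequence was placed at a single copy, chosen at random where several matched equally well. Where copies match a read equally well, a peak therefore shows that reads of that sequence were recovered, not which copy was occupied.

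The largest family was the downstream site printed above, with 10 GFP-positive summits. They lay 6608 to 12952 bp downstream of the copy starts, between 9169 and 9360 bp in Gm9758, Speer4e, Gm21083, Speer4d and 4930572O03Rik. Gm17019 had its summit at 8606 bp, Gm10354 at 6608 bp and Gm21190 at 6783 bp, and Gm21149 had a pair, at 6615 and 12952 bp. Their −log10 q ranged from 1.32 in Gm21190 to 9.20 at the nearer site of Gm21149 and their fold enrichment from 2.35 to 4.56. The match of Speer4c, 9259 bp downstream of its start and 99.5% identical to the summit sequence of Gm21149 over 200 bp, had no peak in either list. The nearest GFP-positive summit of Speer4c was at 10804 bp. Another 2 matches lay on other chromosomes, neither under a GFP-positive peak.

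**Figure D3:**
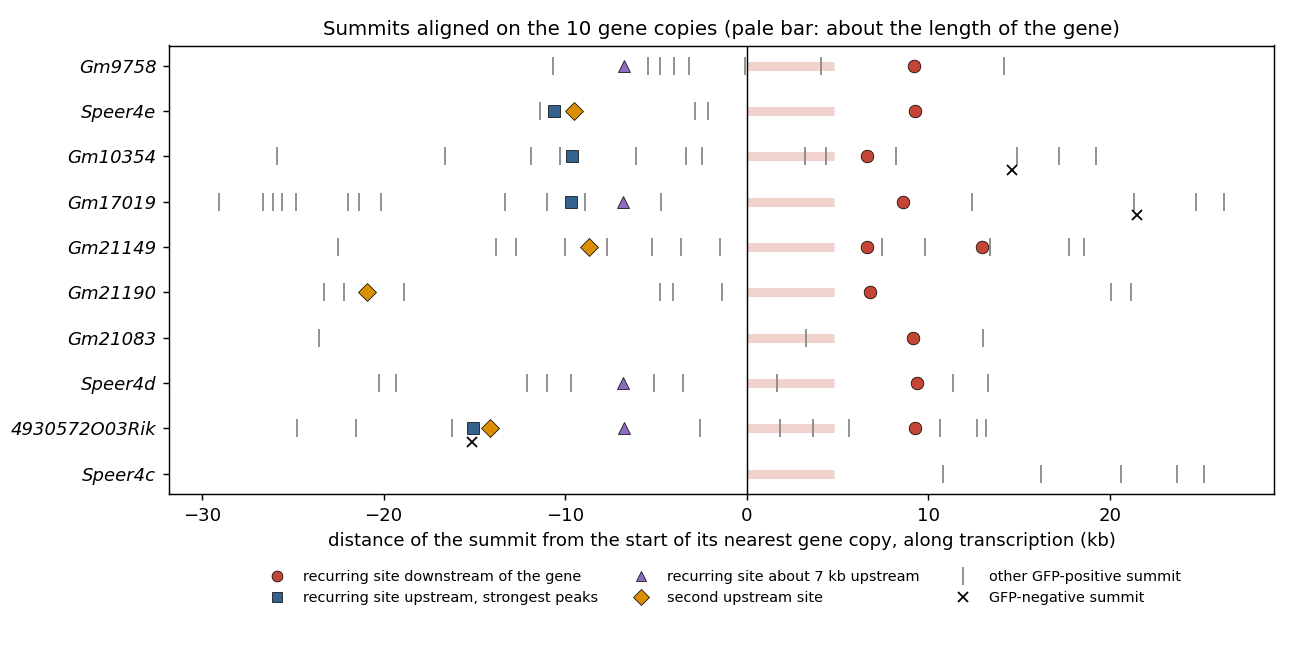
Array summits placed by their distance in kb from the start of the nearest gene copy, positive in the direction of transcription, with 1 row per copy. Coloured symbols are GFP-positive summits of 4 sequence families, grey ticks the other GFP-positive summits and crosses the 3 GFP-negative summits; the red circles of the downstream site appear in every row but that of Speer4c.

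The upstream site printed above held the strongest peak of the window. That peak, near 4930572O03Rik with its summit at 15672174, had a fold enrichment of 10.2 and a −log10 q of 26.0. The site lay 9551 to 10571 bp upstream of Speer4e, Gm10354, Gm17019, Gm21149 and Speer4d, and 15090 and 21895 bp upstream of 4930572O03Rik and Gm21190. All 7 matches were under GFP-positive peaks, 4 of them with the summit in the family, at a −log10 q of 7.58 to 26.0. Only the match of 4930572O03Rik was also under a GFP-negative peak. Gm9758, Gm21083 and Speer4c had no match to it.

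About 1 kb nearer to the genes lay another family with 7 matches, all in the array, of which 4 were under a GFP-positive peak and 0 under a GFP-negative peak. Another match, that of Gm17019, met the edge of a GFP-positive peak without its midpoint in it. The summits of the family, near Speer4e, Gm21149, Gm21190 and 4930572O03Rik, had a −log10 q of 6.03 to 19.1. The highest of these, at 15671199 near 4930572O03Rik with a fold enrichment of 5.06, was the peak with the third highest −log10 q of the window. Between them ranked the summit at 15552559, 23272 bp upstream of Gm21190, with a fold enrichment of 5.27 and a −log10 q of 20.5. A further family lay 6660 to 6774 bp upstream of 8 copies and was under a GFP-positive peak in Gm9758, Gm17019, Speer4d and 4930572O03Rik, but not in Speer4e, Gm10354, Gm21149 or Gm21190. Thus near-identical sequence was under a peak at some copies and not at others.

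Sequence around every array summit recurred in the assembly by 31-base words. With 50-base words some summits, such as that at 15006725 near Gm17019, had a copy number of 1. The median copy number of the 31-base words within 200 bp was at least 2 at 111 of 111 GFP-positive summits (96.7% to 100%), against 26.8% of the summits of the whole list. Their median copy number was 7, below the 10 copies of the gene, and 16 summits (14.4%) reached 10 or more, against 20.2% of the list. The array summits were thus low-copy sequence of the array for the most part, with few in high-copy repeats, the highest at 4379 near Gm21149. Their median GC content was 45.5% against 56% in the list, and a median of 37.5% of their bases were soft-masked as repeats against 12%. The array is built of near-identical copies, and copy number, GC content and soft-masking were not measured over its other sequence. These values therefore describe the summits without setting them apart from the rest of the array.

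Few GFP-positive peaks of the array had a partner in the other list. In the array 3 of 111 (2.703%, 0.923% to 7.65%) shared a region with a GFP-negative peak. Over the genome 66.5% of GFP-positive peaks did, and 54.4% of those at a copy number of at least 2. Of the 14649 summits of the list at a copy number of at least 2, 11030 reached 10 or more, against 16 of 111 in the array. The 54.4% thus comes mostly from sequence of higher copy number and is not a matched reference for the array. Reads of both lists were placed by the same rule, and whether read placement affects this share was not tested.

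Neighbouring GFP-positive summits of the array lay a median of 2.29 kb apart (quartiles 1.16 and 4.97 kb, n = 109), against 11.9 kb in the whole list (3.56 and 46.5 kb). The closest pair was 0.435 kb apart and the widest interval 26.9 kb, and 46 of the 109 intervals were within 2 kb. Spacing was thus far below the 44.9 kb between gene copies, with several summits to each copy.

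The array peaks were numerous but weak. Their median fold enrichment was 2.88 (quartiles 2.54 and 3.52, range 1.83 to 10.2) against 4.13 in the whole GFP-positive list, and their median −log10 q was 3.13 against 3.44. A −log10 q of at least 5 was reached by 31 (27.9%), against 37.7% of the list. They were also narrow, with a median width of 376 bp against 825 bp. At a like −log10 q the fold enrichment was lower than usual, below the list median of the same −log10 q range in 109 of 111 peaks. Between a −log10 q of 5 and 10, for example, the median was 3.89 in the array (n = 23) and 5.59 in the list (n = 9029). Fold enrichment is relative to the background MACS2 estimated around each peak, and whether that background was raised in the array was not tested.

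**Figure D4:**
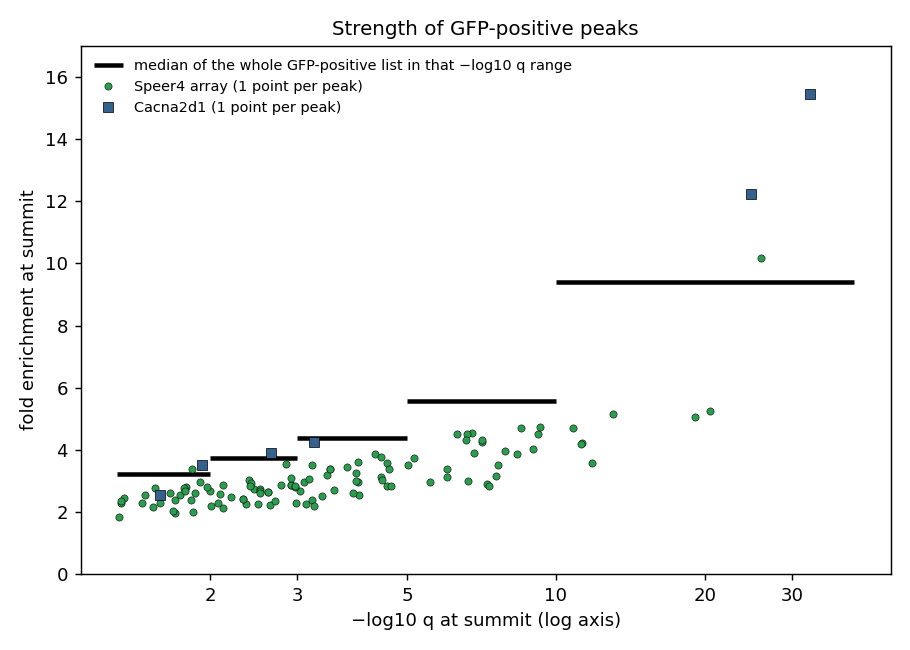
Fold enrichment against −log10 q (log axis) for the 111 GFP-positive peaks of the array (green) and the 6 of Cacna2d1 (blue), with black bars at the median of the whole GFP-positive list in 5 ranges of −log10 q. All but 2 of the array peaks fall below the bar of their range.

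Of the GFP-negative peaks of the array, 3 of 3 shared a region with a GFP-positive peak, against 44.3% of that whole list. Near 4930572O03Rik the summits at 15672186 and 15672174 were 12 bp apart, and the GFP-negative peak had a fold enrichment of 3.35 and a −log10 q of 2.59. Near Gm10354 the GFP-negative summit at 14964328 (4.30, 5.44) was 292 bp from the GFP-positive summit at 14964036 (3.79, 4.44). Near Gm17019 the GFP-negative summit at 15011512 (2.56, 1.44) was 182 bp from that at 15011694 (3.45, 3.78). In brackets stand fold enrichment and −log10 q, which are relative to the background of their own list and are not compared between lists. The sequence within 30 bp of the latter 2 GFP-negative summits is printed, on the plus strand, because these were the only other places in the array where the GFP-negative list had a peak.
near Gm10354, chr5:14964298-14964358, plus strand: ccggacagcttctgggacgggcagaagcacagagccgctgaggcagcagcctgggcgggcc
near Gm17019, chr5:15011482-15011542, plus strand: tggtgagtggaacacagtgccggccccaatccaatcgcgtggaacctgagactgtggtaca
The copy number was 838 at the former and 11 at the latter, and the surrounding 200 bp were wholly soft-masked at both.

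Outside the array the window held the other 6 GFP-negative peaks. The common regions were at the promoter of Pclo (GFP-negative summit 14515056, 4.22 and 7.20), at 15781763 between Speer4c and Cacna2d1 (5.51 and 9.09, the highest −log10 q of the GFP-negative list in the window) and at the promoter of Cacna2d1. The GFP-negative-specific regions were at 15774091 (4.27, 2.89), 15774774 (2.95, 1.50) and 15904312 (3.03, 1.57), all between Speer4c and Cacna2d1 and outside every promoter and body. The remaining GFP-positive-specific summits were 2 in the body of Pclo, 1 of them also in its antisense gene Gm26954, and 1 between Speer4c and Cacna2d1. At the edges of the window, the first peaks inside were those of the Pclo promoter and the last those of the Cacna2d1 promoter. The nearest peaks outside, with summits at 14401773 in both lists and at 16072600 (GFP-negative) and 16072635 (GFP-positive) on the right, were in common regions, too.

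The neighbouring gene Cacna2d1 (chr5:15934691-16374511) offers a span of like size, 439.8 kb, without gene copies. It held 6 GFP-positive peaks (1.36 per 100 kb) and 3 GFP-negative peaks (0.682 per 100 kb). By summits inside the body, the GFP-negative count equalled that of the array, whereas the GFP-positive count was 6 against 111. Within 10 kb of the body there were 4 GFP-negative and 6 GFP-positive summits, because the GFP-negative summit of the promoter lay just outside the body. Counting the promoter, whose GFP-negative summit lay 146 bp upstream of the start and whose GFP-positive summit lay 256 bp downstream, 4 of its 6 regions were common, 2 were GFP-positive-specific and 0 GFP-negative-specific. The promoter peak, which also lies in the promoter of the lincRNA Gm3510, had a fold enrichment of 4.67 (−log10 q 3.82) among GFP-negative peaks and 2.56 (−log10 q 1.58) among GFP-positive peaks.

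Inside Cacna2d1 the common peaks were among the strongest near the locus. At 137.9 kb from the start the GFP-negative peak had a fold enrichment of 12.9 and the GFP-positive peak 12.2, and at 234.7 kb these were 14.1 and 15.4. A weaker common region at 246.5 kb had 6.24 and 4.27. The GFP-positive-specific peaks, at 245.3 and 356.0 kb, had 3.51 and 3.90. Of the 6 GFP-positive summits 3 had a copy number of at least 2, and at both strong common sites it was high, 1849 and 801. Array summits had a median copy number of 7, so these 2 sites are not comparable to array sequence.

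Copies of the Speer4 gene elsewhere in the genome had fewer GFP-positive peaks. Alignment found 17 such copies, 80.3% to 90.4% identical to Speer4c, mostly on the same chromosome near Speer4a. Within 25 kb of their starts lay 23 GFP-positive and 9 GFP-negative summits in 495.1 kb, or 4.65 and 1.82 per 100 kb. Over all chromosomes these were 2.06 and 3.16, so these copies differed in the same direction as the array, to a lesser degree. The same count around the starts of the 10 copies of the window gave 104 and 3 in 435.7 kb, or 23.9 and 0.689 per 100 kb. Of the 17 copies 15 had a GFP-positive summit and 11 a GFP-negative one, against 10 and 3 of the 10 copies. The stretches of neighbouring copies overlap, more so near Speer4a, so 1 summit can count for several copies. These counts of copies are therefore not alike between the sets, whereas the totals and densities count each summit once.

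Of the 10 annotated genes named Speer outside the window, 4 had a GFP-positive summit within 10 kb of the body and 0 had a GFP-negative summit, against the 52.8% and 59.2% of all genes. Those were Speer4a and Speer9-ps1 with 3 each and Speer4f1 and Speer4b with 1 each, all in GFP-positive-specific regions. Speer1, Speer2, Speer3, Speer4f2, Speer5-ps1 and Speer6-ps1 had none in either list. Among the 7 listed members the same count gave 7 with a GFP-positive summit and 0 with a GFP-negative one.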

How the data were processed

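DPPA4 CUT&RUN peaks were taken from 2 deposited lists, each pooled over 2 libraries. As stated in the methods, the authors trimmed reads with bbduk, aligned them with STAR so that a read with many matches was kept and placed at a single best or random position, removed duplicates with Picard, dropped reads in high-signal blacklist regions and called peaks with MACS2 on fragments; the submitters' processing notes name STAR 2.7.10, Picard 2.26.0, SAMtools 1.14, bedtools 2.30.0, MACS2 2.2.6 and mm10. Whether IgG served as control is not given in the sources used here. Fold enrichment is the authors' ratio of summit signal to local background, the deposited −log10 q is the adjusted significance of the summit, the deposited score derives from the unadjusted one and was not used, and the deposited summit offset gives the position.

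Random placement spreads the reads of a repeated sequence over its copies. Coordinates are 1-based mm10, read from the sequence of GRCm38.p6 with GENCODE vM21, and peaks were placed by their summit. Peaks sharing 1 bp were merged into regions. Gene copies, summit families and their matches were found with BLAST 2.17.0 (families at 90% identity over 100 bp; matches in the genome of at least 150 bp, under a peak by their midpoint), alignments made with MAFFT 7.526, and copy numbers counted from 31-base words on both strands, all in Python 3.11.15. Printed sequences come from the RefSeq genome file of GRCm38.p6; its promoter table matched 6 of the 7 members and was not printed. Scripts were tested on simulated data. The members and lists were chosen with earlier results of these data known. Named were the members, Cacna2d1, other genes of the window holding a summit, the 3 peaks of highest −log10 q per list, and every common or GFP-negative-specific region; further Speer genes were taken by name, gene copies by alignment, and the peaks of sequence families, of the copy starts and of Cacna2d1 were named after their values were seen. Alternatives covered the overlap rule, −log10 q threshold, list length, window, promoter, gene span, copy number and family identity.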

Additional observations from a re-analysis of the deposited data

How the results depend on the processing

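Over the window the GFP-positive list had 117 peaks and the GFP-negative list 9, and 92.5% of regions were GFP-positive-specific. At a −log10 q of at least 5 these counts were 31 and 3, with 91.2% specific and a median spacing of GFP-positive summits of 9.34 kb against 2.44 kb. Among the 10000 strongest peaks of each list they were 6 and 0, so that 100% of regions were specific. From the first to the last member with 50 kb on either side the GFP-negative count was 2 and the share 97.7%, and over the array alone, a choice made after seeing the data, they were 3 and 97.3%. Of the 117 summits, 3.42% lay in member bodies and 35.9% in bodies extended by 10 kb, and 12.0% lay in a promoter of any gene against 5.98% within 1 kb of a start. Multi-copy sequence held 96.6%, against 89.7% with 50-base words and 15.4% at a copy number of at least 10. The other 13 of 27 alternatives moved their value by less than the counting interval or less than 1.5 times for counts and spacing. No paired analysis was possible because each list pools its replicates. Leaving out a replicate could not be done for the same reason, and depth limits every count, since the reads kept are unknown.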
